A study of Rattus norvegicus with 18 samples.

Results

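The genes described here encode the CB1 cannabinoid receptor (Cnr1) and 6 enzymes that make or break down its lipid ligands: Dagla, Daglb, Mgll, Abhd6, Napepld and Faah. They were taken by symbol and make up 7 of the 38445 genes in the count tables, and 6 of the 17637 genes that had enough counts to be tested; Faah was the gene that did not. The tissue was the ventral tegmental area (VTA), a midbrain nucleus whose dopamine neurons project to the reward circuit, from 18 adult male Sprague-Dawley rats of wild-type genotype, with 1 library per rat. All rats were fed Lieber-DeCarli liquid diet for 15 or 16 days. The 6 control rats (numbered 1 to 6) had this diet without ethanol. The 6 chronic ethanol rats (7 to 12) had it with 9% v/v ethanol and were taken at 0 h of withdrawal. The 6 withdrawal rats (13 to 18) had the same ethanol diet and were taken 24 h after it ended.

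Endocannabinoids are lipids made on demand in the membrane of an active neuron. They travel backwards across the synapse to CB1, a receptor coupled to inhibitory G proteins on axon terminals, where they lower transmitter release. In the VTA, terminals that contact dopamine neurons carry CB1, and 2-arachidonoylglycerol (2-AG) released by dopamine neurons acts on them. The diacylglycerol lipases alpha and beta (Dagla and Daglb) make 2-AG, and monoacylglycerol lipase (Mgll) and the membrane hydrolase ABHD6 (Abhd6) break it down. The other main ligand, anandamide, can be released from its phospholipid precursor by the phospholipase D encoded by Napepld and is hydrolysed by fatty acid amide hydrolase (Faah).

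Libraries held 29.6 to 45.1 M counted fragments. Levels are given as CPM, the share of a library's counts that a gene took, scaled to counts per 1 M with TMM factors. For a gene with no count the upper limit, 3 counts, was worth between 0.0665 and 0.102 CPM, for counting error only. Several libraries stood apart from the rest of their groups. The glutamate transporter of synaptic vesicles Slc17a7 reached 509 CPM in control rat 5, 409 in ethanol rat 8 and 810 in withdrawal rat 13, with at most 23.8 CPM in the other 15 rats. Control rat 5 and ethanol rat 8 also held the hindbrain gene Hoxb3 (31.4 and 30.7 CPM, at most 2.01 elsewhere). Withdrawal rat 13 held Tph1, which is abundant in the pineal gland, at 14990.0 CPM (at most 7.43 CPM elsewhere). The dopamine markers Th and Slc6a3 were at 17.6 and 2.56 CPM in withdrawal rat 17, against 465 ± 203 and 455 ± 198 CPM in control (SD, n = 6). Ethanol rat 7 held Pmch, a peptide gene of the lateral hypothalamus, at 292 CPM (at most 3.80 CPM elsewhere).

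In the deposited annotation (Rnor_6.0), Cnr1 (gene 25248) lies at chr5:49307584-49333064 on the plus strand with 6.178 kb of exon. Dagla (309207) lies at chr1:226297013-226353712 on the minus strand (5.742 kb) and Daglb (304289) at chr12:13113073-13157748 on the minus strand (3.121 kb). Mgll (29254) lies at chr4:120671436-120773458 on the plus strand (4.257 kb) and Abhd6 (305795) at chr15:18647903-18695133 on the minus strand (4.41 kb). Napepld (296757) lies at chr4:9965323-10004650 on the plus strand (7.213 kb). None of these genes shared exon bases with another gene on its strand.

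The promoters of Mgll and Abhd6 are shown because these 2 enzymes act on the same lipid and their transcripts varied to unlike degrees between rats. Each runs from 250 bases before to 50 bases after the start of the gene in RefSeq's GRCr8 annotation, 5′ to 3′ on the strand of the gene. The Mgll window is chr4:122749186-122749485 (plus strand) and the Abhd6 window is chr15:19337144-19337443 (minus strand). Capitals mark each match to GGGCGG, the GC box, and to CACGTG, an E-box, searched on both strands (GGGCGG on the other strand reads CCGCCC).
Mgll promoter: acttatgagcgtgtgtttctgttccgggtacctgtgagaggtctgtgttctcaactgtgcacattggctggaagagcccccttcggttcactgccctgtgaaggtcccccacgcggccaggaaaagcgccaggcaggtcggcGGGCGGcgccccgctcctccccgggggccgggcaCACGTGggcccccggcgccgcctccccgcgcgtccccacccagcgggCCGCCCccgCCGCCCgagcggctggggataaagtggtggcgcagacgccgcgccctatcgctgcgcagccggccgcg
Abhd6 promoter: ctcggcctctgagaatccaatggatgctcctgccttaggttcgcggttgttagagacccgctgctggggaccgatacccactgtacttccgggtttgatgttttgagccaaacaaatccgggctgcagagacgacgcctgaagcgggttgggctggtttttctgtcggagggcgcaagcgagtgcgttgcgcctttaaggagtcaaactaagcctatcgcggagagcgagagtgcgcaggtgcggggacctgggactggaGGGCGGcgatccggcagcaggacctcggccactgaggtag
The Mgll window held 3 GC boxes, 1 CACGTG and 35 CG dinucleotides, and no match overlapped another. The Abhd6 window held 1 GC box, 0 CACGTG and 24 CG dinucleotides. Of all 33469 promoters of this length in the table, 33.1% held a GC box and 6.42% a CACGTG, and the median number of CG dinucleotides was 7. Of the 7 genes, 5 matched the table, and all 5 windows had more CG dinucleotides than at least 77.4% of promoters. A match is a description of the letters and not a binding site.

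Levels of different genes were compared as CPM per kb of exon. Mgll was the most abundant member at 22.0 ± 5.64 CPM per kb (SD, n = 18), above 78.3% of the tested genes, and it lay above Cnr1 in 18 of 18 rats. Cnr1 followed at 12.3 ± 3.98 CPM per kb and lay above Abhd6 in 14 of 18 rats. Abhd6, Dagla and Daglb did not differ beyond their spread, at 10.7 ± 1.10, 10.2 ± 1.69 and 9.89 ± 0.835 CPM per kb: Abhd6 was above Dagla in 9 of 18 rats and Dagla above Daglb in 10 of 18. Napepld was lower at 3.80 ± 0.428 CPM per kb, below Daglb in 18 of 18 rats and above 43.2% of the tested genes. Without control rat 5, ethanol rat 8 and withdrawal rats 13 and 17, Dagla at 10.6 ± 1.45 and Abhd6 at 10.2 ± 0.724 CPM per kb changed places (SD, n = 14), and the rest of the order was as before.

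**Figure D1:**
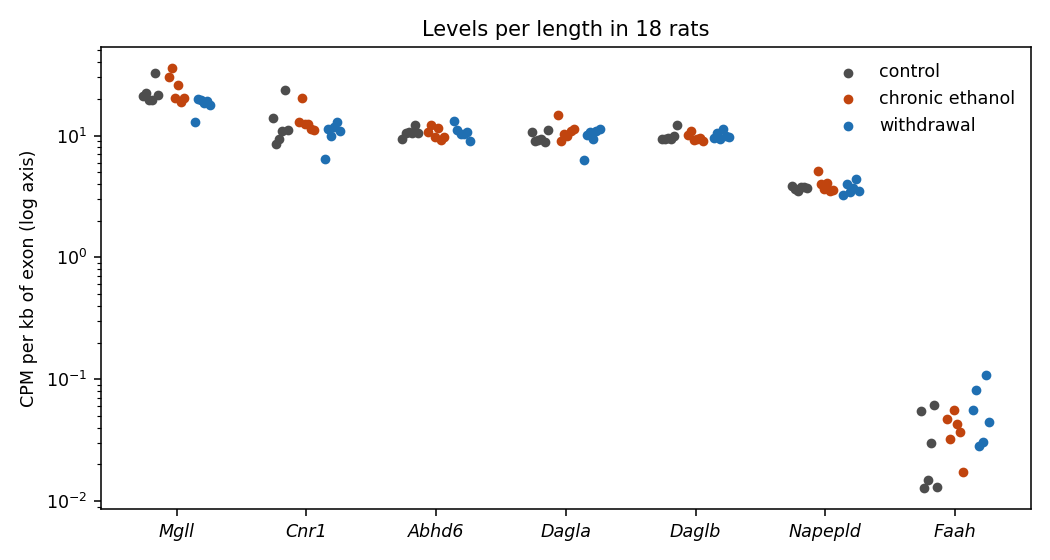
CPM per kb of exon on a log axis for the 7 genes, 1 point per rat, coloured by group. Mgll lies highest at 12.9 to 35.6 CPM per kb, Cnr1, Abhd6, Dagla and Daglb share a band, Napepld lies below it at 3.26 to 5.15, and Faah lies at 0.0127 to 0.107 CPM per kb, where the count was too low to measure it.

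The pairs of enzymes with the same reaction were present in unlike proportions. The 2 diacylglycerol lipases were nearly equal per length, with a Dagla to Daglb ratio of 1.03 ± 0.182 (SD, n = 18). That ratio was lowest in withdrawal rat 13, at 0.665, and highest in ethanol rat 7, at 1.46. Of the 2 enzymes that hydrolyse 2-AG, Mgll exceeded Abhd6 with a ratio per length of 2.13 ± 0.312 in control, 2.36 ± 0.397 in chronic ethanol and 1.71 ± 0.366 in withdrawal (SD, n = 6). The ratio reached 2.92 in ethanol rat 8 and 2.68 in control rat 5, and was 0.977 in withdrawal rat 13, the rat in which Abhd6 was highest and Mgll lowest of all 18.

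Faah could not be measured in these counts. Its values were 2 to 12 counts per library, or 0.0493 to 0.415 CPM. The next annotated gene on each side was also low, at no more than 33 counts for Dmbx1 and 2 for Nsun4 in any library. Other genes in the same stretch, such as Efcab14 and Uqcrh, reached 16490 and 7602 counts, and Uqcrh lies nearer to Faah than Dmbx1 does. In the annotation Faah appears at 2 places on chromosome 5, at chr5:134852899-134872095 (gene 100911581, which carries the symbol) and at chr5:134330204-134349400 (gene 29347), both on the minus strand. Both models span 19197 bases and have 15 exons of the same lengths. The other model held 0 or 1 count per library, and the counting left out fragments that match several places. Of the 24548 genes with 3 or more exons, 350 had exon lengths all the same as those of another gene, and 343 of these (98.0%) had at most 20 counts in every library, against 35.4% of the other 24198. Such genes were matched by exon lengths and not by sequence, and the cause of the low Faah counts was not tested. With counts this low, whether Faah differed between groups is not given. A fit with no filter on low counts put its log2 change at 0.86 ± 0.45 for withdrawal against control (SE; edgeR, adjusted p = 0.590). It was 0.31 ± 0.46 for chronic ethanol against control and 0.55 ± 0.44 for withdrawal against chronic ethanol (edgeR, adjusted p = 0.996 and 0.584).

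**Figure D2:**
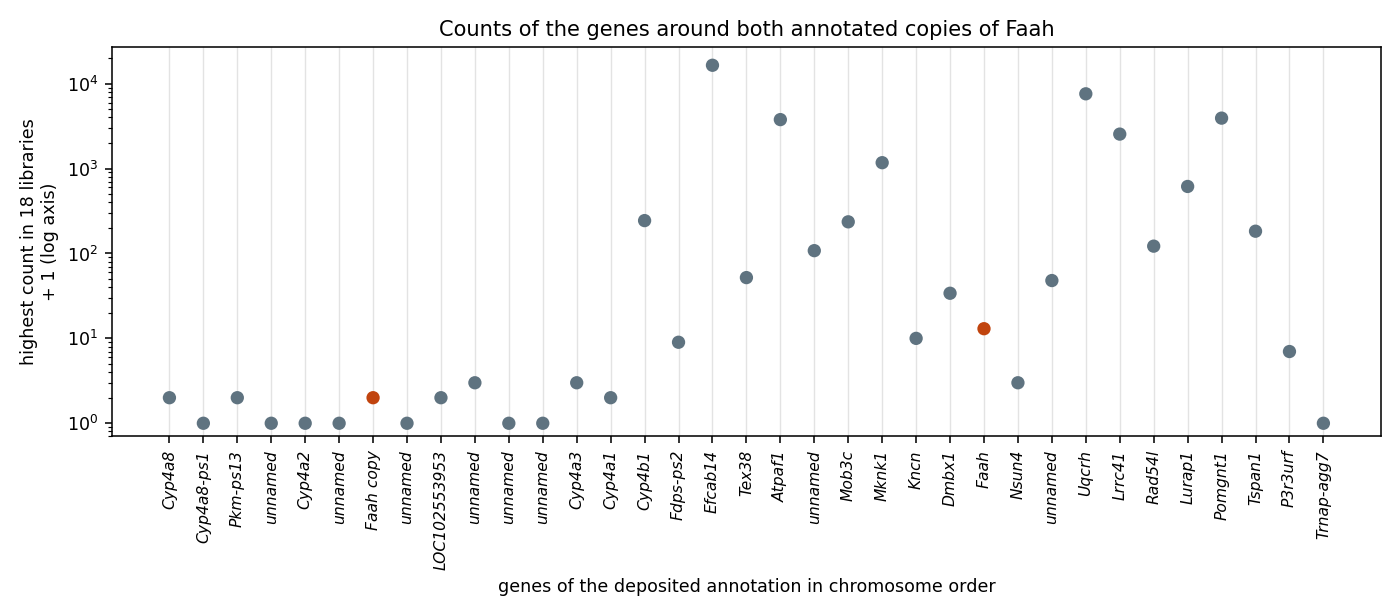
Highest count among 18 libraries, plus 1 and on a log axis, for the annotated genes around both copies of Faah in chromosome order. The Faah copies, coloured, stand at 12 counts and 1 count, while Efcab14 and Uqcrh in the same stretch reach 16490 and 7602; Nsun4, next to Faah, reaches 2.

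The design asks how each transcript differs while rats are on the ethanol diet and 24 h after it ends. None of the 6 measured genes passed edgeR's quasi-likelihood test at a Benjamini-Hochberg adjusted p of 0.05 in any of the 3 comparisons or for any difference among the groups. The share of all tested genes called was 0% in each of the 4, so a count of 0 of 6 says nothing particular about these genes. At an unadjusted p of 0.05, edgeR took 0, 0 and 1 of the 6 in chronic ethanol against control, withdrawal against control and withdrawal against chronic ethanol; over all genes these shares were 5.84%, 9.82% and 15.3%. DESeq2 and limma-voom also called 0 of the 6 in each comparison, while DESeq2 called 46, 47 and 301 of all genes in the same order. The median log2 change of the 6 was 0.08, 0.0061 and -0.14, beside -0.0039, 0.015 and 0.016 over all tested genes. In bulk tissue, fewer cells of a type and less RNA per cell cannot be told apart.

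**Figure D3:**
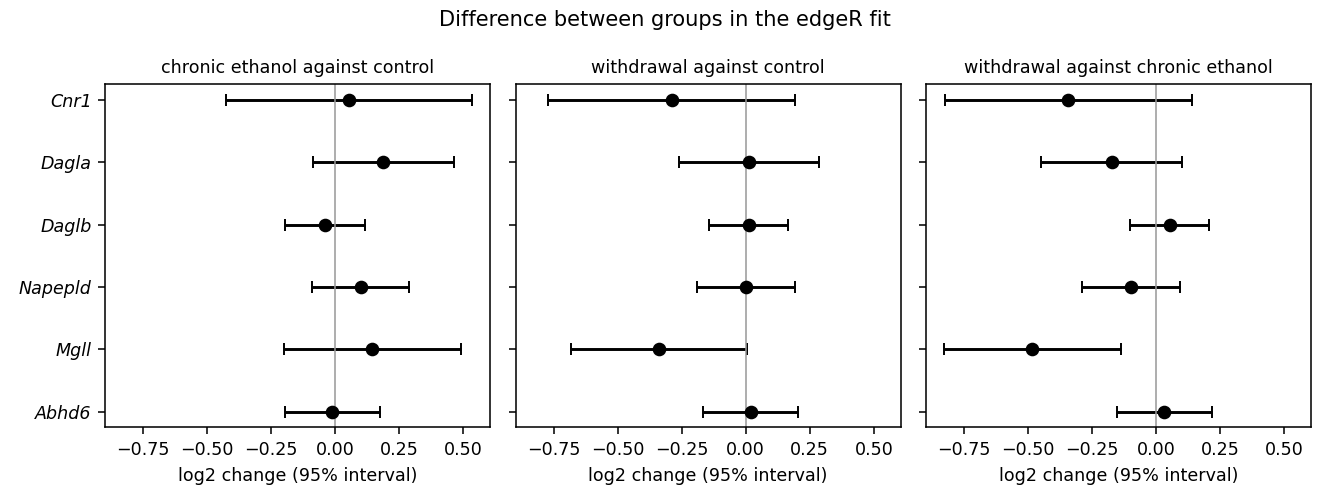
Log2 change of each gene with its 95% interval in the edgeR fit, 1 panel per comparison, with a line at 0. Of the 18 intervals only that of Mgll in withdrawal against chronic ethanol, from -0.83 to -0.14, lies off 0 before adjustment; those of Cnr1 are the widest and those of Daglb the narrowest.

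The receptor Cnr1 gave no difference between groups that passed the test, and a few rats set much of its spread. It ran from 52.9 through a median of 67.8 to 147 CPM in control, from 68.3 through 77.0 to 126 CPM in chronic ethanol and from 39.6 through 69.1 to 80.3 CPM in withdrawal. The highest values were those of control rat 5 and ethanol rat 8 and the lowest that of withdrawal rat 13, which are the 3 rats with high Slc17a7. The groups overlapped, with 3 of 6 withdrawal rats below every ethanol rat and 6 of 6 ethanol rats above the control median. The log2 change was 0.05 ± 0.23 for chronic ethanol against control, -0.29 ± 0.23 for withdrawal against control and -0.34 ± 0.23 for withdrawal against chronic ethanol (SE; edgeR, adjusted p = 0.999, 0.647 and 0.466). The 95% interval for withdrawal against control, -0.77 to 0.19, does not exclude a decrease of over 0.7 on the log2 scale. Without control rat 5, ethanol rat 8 and withdrawal rat 13, Cnr1 was 66.5 ± 12.6, 74.4 ± 4.89 and 70.5 ± 7.07 CPM (SD, n = 5 per group), and the log2 change for withdrawal against control turned to 0.08 (edgeR, adjusted p = 0.839). Control rat 5 alone moved the change in chronic ethanol to 0.32 when left out, and ethanol rat 8 alone to -0.10.

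**Figure D4:**
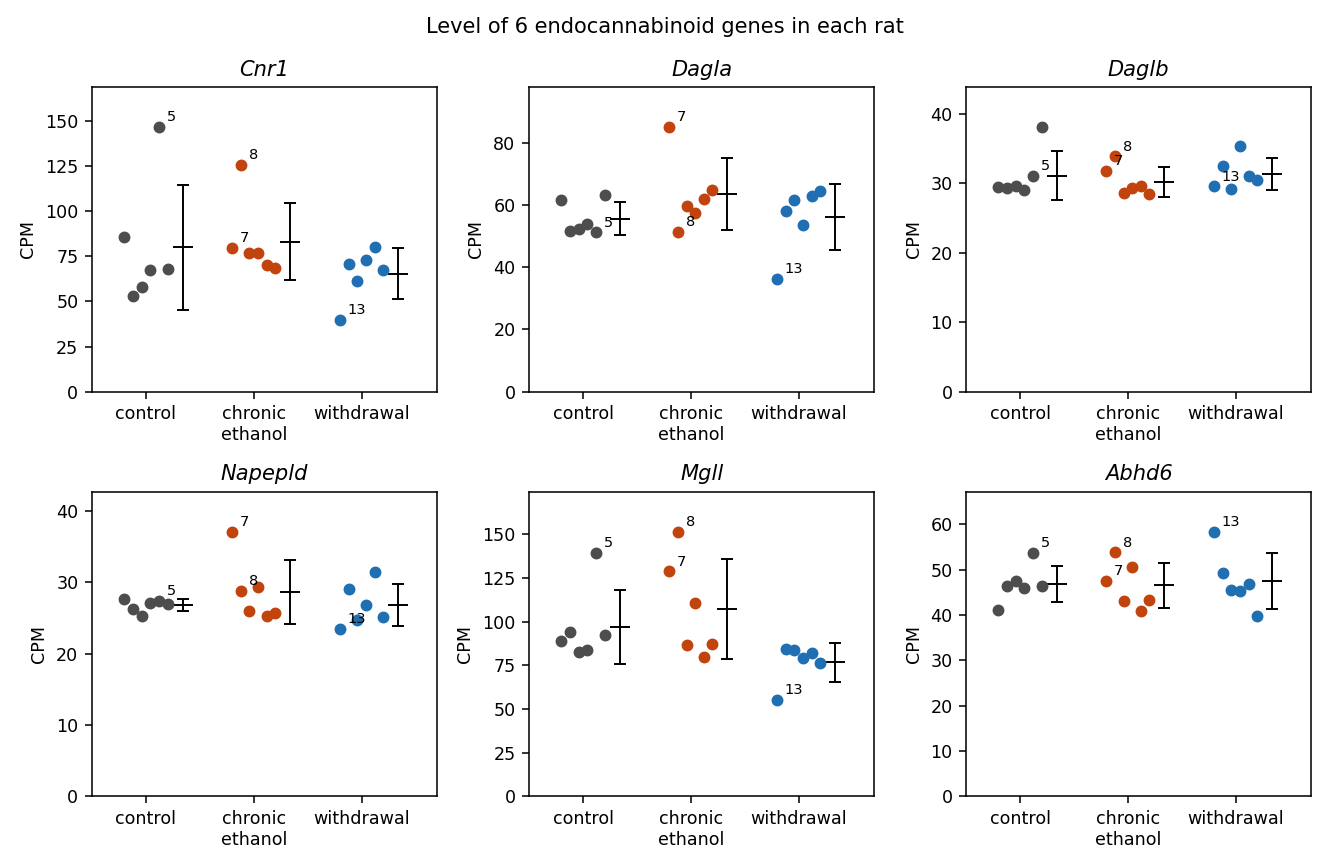
CPM of the 6 measured genes in each rat (points, by group, with rats 5, 7, 8 and 13 numbered) and the mean with SD per group (bars, n = 6). The Cnr1 and Mgll panels have rats 5 and 8 at the top and rat 13 at the bottom; without these, withdrawal values of Mgll sit between 76.2 and 84.1 CPM, while control values run from 82.8 to 94.3 CPM.

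Of Dagla and Daglb, which make 2-AG, Daglb varied less within groups. The within-group SD of Dagla was 0.24 in log2 CPM, beside a median of 0.25 over all tested genes. Dagla, the main synthetic enzyme of the adult brain, ran from 51.2 through a median of 53.1 to 63.2 CPM in control. It ran from 51.4 through 60.8 to 85.1 CPM in chronic ethanol and from 36.2 through 59.8 to 64.6 CPM in withdrawal. Ethanol rat 7 was the highest of 18, withdrawal rat 13 the lowest, followed by control rat 5 and ethanol rat 8, and the groups overlapped. The log2 change in chronic ethanol was 0.19 ± 0.13, with a 95% interval of -0.09 to 0.46 (SE; edgeR, adjusted p = 0.969), and 0.09 without ethanol rat 7. In withdrawal it was 0.01 ± 0.13 against control (adjusted p = 0.978) and -0.17 ± 0.13 against chronic ethanol (adjusted p = 0.515).

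Daglb varied least of the 6 transcripts over all 18 rats, with a within-group SD of 0.12 in log2 CPM that was larger than in only 18.1% of the tested genes. Mean CPM was 31.1 ± 3.50 in controls, 30.2 ± 2.15 on ethanol and 31.3 ± 2.32 in withdrawal (SD, n = 6). Control rat 6, at 38.1 CPM, was the highest, and every other rat lay between 28.4 and 35.4 CPM. The log2 changes were -0.04, 0.01 and 0.05, each with an SE of 0.07 (edgeR, adjusted p = 0.999, 0.966 and 0.751), and the 95% interval for chronic ethanol against control ran from -0.20 to 0.11.

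Mgll, which ends most 2-AG signalling, had the lowest p of the 6 genes in both comparisons of withdrawal, with lower values there that did not pass the test. It ran from 82.8 through a median of 90.7 to 139 CPM in control, from 79.5 through 98.7 to 152 CPM in chronic ethanol and from 55.1 through 80.4 to 84.1 CPM in withdrawal. Of the 6 withdrawal rats, 4 lay below every control rat, 3 below every ethanol rat and 0 above the median of either group, so the groups overlapped only at the low end. Control rat 5 and ethanol rat 8 were again highest, with ethanol rat 7 next, and withdrawal rat 13 was lowest. The log2 change in withdrawal was -0.48 ± 0.16 against chronic ethanol, a ratio of 0.715 with a 95% interval of 0.563 to 0.908 (SE; edgeR, adjusted p = 0.204). Against control it was -0.34 ± 0.16 (edgeR, adjusted p = 0.513), with a 95% interval of -0.68 to 0.0060. An exact two-sided permutation test of log2 CPM gave unadjusted p = 0.0152 and 0.0108 for these, where the smallest possible is 0.00217. These are the lowest exact p of the 6 genes in the 3 comparisons, with no adjustment for that number of tests. The next lowest was 0.0909, for Cnr1 in withdrawal against chronic ethanol. For any difference among the groups the edgeR adjusted p was 0.367, and chronic ethanol differed from control by 0.15 ± 0.16 (adjusted p = 0.999).

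The size of the Mgll difference rested in part on the rats that stood apart. Without control rat 5, ethanol rat 8 and withdrawal rat 13, the means were 88.5 ± 5.02, 98.4 ± 20.6 and 80.9 ± 3.30 CPM (SD, n = 5 per group). The log2 change in withdrawal then came to -0.14 against control and -0.28 against chronic ethanol (edgeR, adjusted p = 0.677 and 0.182). Libraries also carried different first index sequences, shared by rats 1 to 8, by rats 9 to 16 and by rats 17 and 18. Within the index of rats 9 to 16, 4 withdrawal rats differed from 4 ethanol rats by -0.28 in mean log2 CPM, beside -0.46 for all 12 (exact permutation p = 0.143, smallest possible 0.0286). Within the index of rats 1 to 8, ethanol rats 7 and 8 lay 0.55 above the 6 controls, beside 0.13 for all 12 (exact permutation p = 0.0714, smallest possible 0.0357). These are the only ethanol rats with that index, and both stood apart, rat 7 by Pmch and rat 8 by Slc17a7 and Hoxb3. No index held both control and withdrawal rats, so index and group cannot be told apart there. With the index in the model the change in withdrawal against control turned to 0.26 (edgeR, adjusted p = 0.819), a value that rests on ethanol rats 7 and 8 as the link between the indices.

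Oligodendrocyte markers, like those of several other cell types, were lowest in withdrawal rat 13, where Mgll was also lowest. No relation of Mgll to a marker list mean passed adjustment. The summed level of 7 of 7 markers (Mbp and others) ran from 29580 to 40594 CPM in control, 29764 to 40976 in chronic ethanol and 16622 to 43413 in withdrawal, and no marker was at 0 in any group. With group means subtracted, log2 CPM of Mgll and the mean of these markers had Pearson r = 0.55 and Spearman rho = 0.61 over 18 rats (permutation p = 0.0137 and 0.0118, adjusted p = 0.191 and 0.221), and r = 0.71 without control rat 5 and ethanol rat 8. Over the 14 rats r was 0.54 (permutation p = 0.0577, adjusted p = 0.380). The relation was not particular to Mgll. Abhd6 and the same oligodendrocyte mean had r = 0.75 over the 14 rats (permutation p = 0.00102, adjusted p = 0.0765) and -0.29 over 18. With that mean as a term the change of Mgll in withdrawal against chronic ethanol was -0.46 (edgeR, adjusted p = 0.0922), and with the mean of 12 dopamine neuron markers it was -0.52 (adjusted p = 0.241). Rat 13 was also the lowest of the 18 for the summed markers of astrocytes, oligodendrocyte precursors, microglia and endothelium. Mgll and the mean of the astrocyte markers (Gfap and others) had r = 0.56 over 18 rats (permutation p = 0.0230, adjusted p = 0.191) and 0.064 over 14.

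Abhd6, the membrane hydrolase that takes a smaller share of 2-AG, had nearly equal means in the 3 groups. Its mean was 46.9 ± 4.06 CPM for control, 46.5 ± 5.02 for chronic ethanol and 47.5 ± 6.15 for withdrawal rats (SD, n = 6). Withdrawal rat 13, at 58.4 CPM, ethanol rat 8, at 53.8 CPM, and control rat 5, at 53.7 CPM, were the 3 highest, and they are also the 3 lowest rats for Dagla. The log2 changes were -0.01, 0.02 and 0.03 with an SE of 0.09 each (edgeR, adjusted p = 0.999, 0.949 and 0.886), and the 95% interval for chronic ethanol against control ran from -0.20 to 0.17.

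Napepld, of the anandamide route, also gave no difference that passed the test. Control rats averaged 26.8 ± 0.851 CPM, ethanol rats 28.7 ± 4.47 and withdrawal rats 26.8 ± 2.97 (SD, n = 6). Controls lay within 25.4 to 27.7 CPM, the tightest group of any member, while ethanol rat 7 reached 37.1 CPM and withdrawal rat 17 reached 31.4 CPM. The log2 change in chronic ethanol was 0.10 ± 0.09, with a 95% interval of -0.09 to 0.29 (SE; edgeR, adjusted p = 0.999), and 0.01 without ethanol rat 7. Within the index of rats 1 to 8, ethanol rats 7 and 8 lay 0.29 above the 6 controls in mean log2 CPM, beside 0.09 for all 12 (exact permutation p = 0.0357, the smallest that 28 splits can give), a value that rests on the same 2 rats that stood apart. In withdrawal the log2 change was -0.10 ± 0.09 against chronic ethanol (edgeR, adjusted p = 0.602) and 0.00088 against control (adjusted p = 0.998).

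The members differed in how much they varied within groups. Cnr1 had an SD of 0.41 and Mgll of 0.30 in log2 CPM, against 0.24 for Dagla, 0.15 for Abhd6 and for Napepld, and a median of 0.25 over all tested genes. Without rats 5, 8, 13 and 17 the SD was 0.18 for Cnr1, 0.19 for Mgll, 0.17 for Dagla, 0.15 for Napepld, 0.13 for Daglb, 0.11 for Abhd6 and 0.16 for the median gene, so that Abhd6 then varied less than Daglb, which exceeded 40.6% of the tested genes.

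Of 15 pairs of members and 60 pairs of a member with a marker list mean, 0 had a permutation p for Pearson r under 0.05 after Benjamini-Hochberg adjustment over the 75, over 18 or over 14 rats. The closest pair was Cnr1 and Mgll, with r = 0.81 (permutation p = 0.00076, adjusted p = 0.0570) and rho = 0.75 (permutation p = 0.00146, adjusted p = 0.0547) over 18 rats with group means subtracted. Without rats 5 and 8 r was 0.61, and without rats 5, 8, 13 and 17 it was 0.19 (permutation p = 0.354, adjusted p = 0.778), so the relation rests on those rats. Napepld and Mgll had r = 0.60 over 18 rats (permutation p = 0.0134, adjusted p = 0.191) and 0.87 over 14 (permutation p = 0.00753, adjusted p = 0.141), with 0.64 when rats 7 and 11 were also left out. Dagla and Abhd6 had r = -0.63 over 18 rats (permutation p = 0.0182, adjusted p = 0.191) and -0.16 over 14. Over 14 rats the lowest p was that of Abhd6 with the oligodendrocyte mean, given above, followed by Cnr1 with the dopamine neuron mean. The latter had r = -0.78 (permutation p = 0.0025, adjusted p = 0.0937), and -0.55 over 18 rats (permutation p = 0.0176, adjusted p = 0.191).

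**Figure D5:**
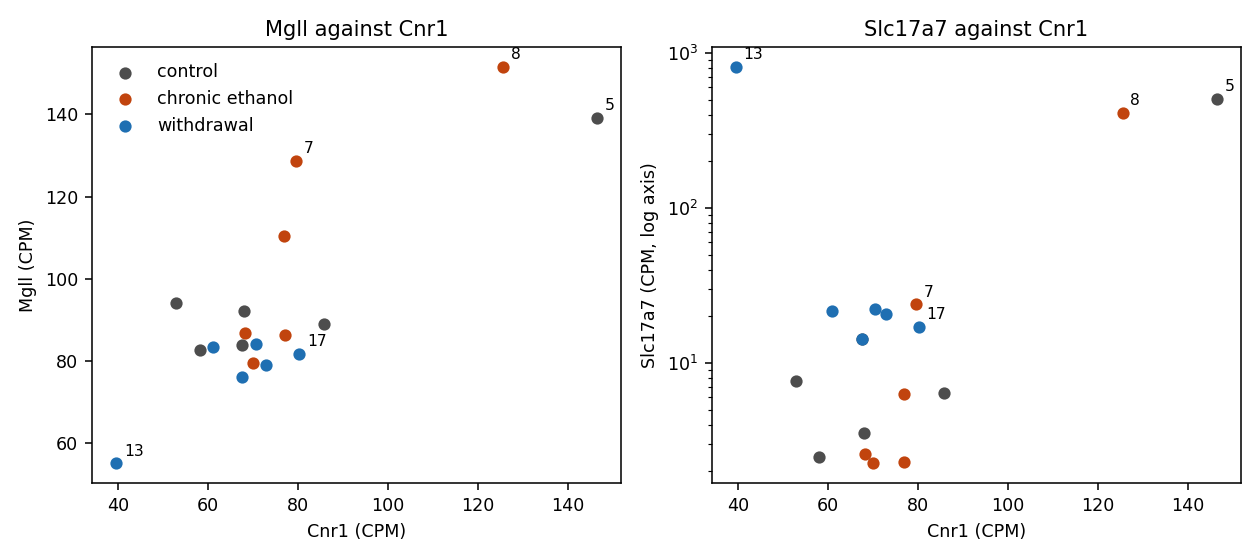
Mgll (left) and Slc17a7 (right, log axis) against Cnr1 in CPM, 1 point per rat, coloured by group. Rats 5 and 8 lie at the upper right for Mgll and rat 13 at the lower left; the same 3 rats hold Slc17a7 at 409 to 810 CPM, with Cnr1 at 147, 126 and 39.6 CPM in rats 5, 8 and 13.

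The tested genes whose log2 CPM ran most like each member, with group means subtracted, changed with the rats included. For Cnr1 over 18 rats they were Mlnr, Hs6st3 and Frmpd4 (r = 0.96, 0.96 and 0.95), and over the 14 rats Sst, the somatostatin gene, Krt26 and Drd5 (0.91, 0.88 and 0.88). For Mgll they included Pcp4 and Shb over 18 rats (each 0.93) and Spin2b, Ninj2 and Igsf21 over 14 (0.93, 0.90 and 0.89). Dagla had Sema6b, a semaphorin, in both sets (0.95 over 18 and 0.94 over 14), and Napepld had Kctd17 (0.84 and 0.91). For Daglb the likeness was looser over 18 rats, with Map2k7, Actb and Chmp6 at 0.82, 0.81 and 0.81, and for Abhd6 it was led by Proser3 at 0.91. These are the highest of many values and a description of these rats.

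Other genes of the endocannabinoid system were taken as a list of 20, of which 16 were tested and 0 called in any comparison. By edgeR's unadjusted p, 0, 2 and 1 of them lay under 0.05 in chronic ethanol against control, withdrawal against control and withdrawal against chronic ethanol. The shares over all tested genes were 5.84%, 9.82% and 15.3%. Of the 16, 8, 3 and 4 were higher and 8, 13 and 12 lower in these comparisons, with median log2 changes of 0.0035, -0.11 and -0.10, beside the medians near 0 over all genes given above. Fabp3, a fatty acid binding protein, was 25.4 ± 6.53 CPM in control, 23.0 ± 5.11 in chronic ethanol and 18.5 ± 3.75 in withdrawal (SD, n = 6), a log2 change of -0.45 ± 0.17 in withdrawal against control (SE; edgeR, adjusted p = 0.436). Gdpd1, a lysophospholipase D that can release N-acylethanolamines, was at 48.4 ± 3.48, 47.6 ± 5.80 and 43.0 ± 2.54 CPM, a log2 change of -0.17 ± 0.07 in the same comparison (edgeR, adjusted p = 0.483). Gde1, a phosphodiesterase of an alternative anandamide route, differed by -0.20 ± 0.09 in withdrawal against chronic ethanol (edgeR, adjusted p = 0.313). In chronic ethanol the lowest p was that of Ptpn22, at -0.85 ± 0.51 (edgeR, adjusted p = 0.945), a phosphatase gene with a median of 0.221 CPM.

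The other receptors were scarce. Cnr2, the CB2 receptor of immune cells, lay between 0.885 and 2.21 CPM over the 18 rats, and Trpv1, an ion channel that anandamide can open, between 2.35 and 3.99 CPM. Gpr55, Gpr18 and Gpr119 did not pass the filter, with at most 8, 6 and 3 counts in any library. Proteins that bind CB1 were plentiful: the medians over 18 rats were 116 CPM per kb for Gprasp1, which sorts the receptor to degradation, 18.8 for Sgip1 and 28.6 for Cnrip1, beside 11.4 for Cnr1 itself.

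Diacylglycerol, the substrate of Dagla and Daglb, comes from phospholipase C beta below receptors that couple to Gq. All 11 genes of that list (4 receptors, 2 G protein subunits, the scaffold Homer1 and 4 phospholipases) were tested and 0 were called in any comparison. By edgeR's unadjusted p, 0, 0 and 1 lay under 0.05 in chronic ethanol against control, withdrawal against control and withdrawal against chronic ethanol. Over all tested genes these shares were 5.84%, 9.82% and 15.3%. Of the 11, 7, 2 and 1 were higher and 4, 9 and 10 lower. The median log2 changes were 0.0071, -0.07 and -0.13, beside -0.0039, 0.015 and 0.016 over all tested genes. Homer1, which ties group I glutamate receptors to their effectors, differed by -0.24 ± 0.09 in withdrawal against chronic ethanol (SE; edgeR, adjusted p = 0.250). Plcb4 differed by -0.26 ± 0.14 in withdrawal against each of the other groups (edgeR, adjusted p = 0.546 against control and 0.380 against chronic ethanol). Chrm3, a muscarinic receptor, had -0.53 ± 0.31 in withdrawal against control (edgeR, adjusted p = 0.554). Its median was 19.7 CPM in control, where the highest rat reached 61.8 CPM, and 18.9 CPM in withdrawal. In chronic ethanol, Plcb1 had 0.21 ± 0.13 (edgeR, adjusted p = 0.954).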

How the data were processed

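RNA of 18 rats was read as stranded mRNA libraries. The authors aligned reads with STAR 2.5.2a to Rnor_6.0 and counted fragments per RefSeq gene with featureCounts 1.5.0, per the file headers and the submitters' processing notes. The deposited values are raw counts, counted by strand and without fragments that match several places. What this took from genes annotated more than once was not tested. Symbols came from a RefSeq table of GRCr8 used for names only, which named 29322 genes, and promoters from RefSeq.

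All 18 libraries entered 1 edgeR 4.0.16 quasi-likelihood fit (R 4.3.3, TMM, filterByExpr, 3 groups, no covariate), with Benjamini-Hochberg adjustment over 17637 genes. The SE is the size of the log2 change over the square root of F. Log2 CPM used a prior count of 2. Correlations used 100000 permutations within groups. DESeq2 1.42.0 and limma-voom (limma 3.58.1) were alternatives, beside other scaling, filters, model terms and rats left out. Fits without rats 5, 8 and 13, and the Faah copies summed, were added after seeing the data. The fit was tested on simulated data.

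The 7 genes and all lists were chosen with earlier results of these data known. The text names the 7 genes, the 2 genes of lowest p of each list per comparison, the 3 most alike genes per member, Th, Slc6a3 and first list markers; 1 gene that this rule takes is not reported here. Further genes, such as Pmch, Hoxb3 and list members given only by level, were picked after their values were seen. Each library is a separate rat, per the labels.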

Additional observations from a re-analysis of the deposited data

Results flagged for a closer look

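In 6 places the highest or lowest rat of a group of 6 stood farther from its nearest neighbour than Dixon's 95% limit allows, of 21 groups tested (7 genes by 3 groups). Chance flags about 1 in 20 groups. Cnr1 was high in control rat 5, at 146.5 CPM, and in ethanol rat 8, at 125.5 CPM. Mgll was high in control rat 5, at 139.2 CPM, and low in withdrawal rat 13, at 55.09 CPM. Daglb was high in control rat 6, at 38.1 CPM, and Napepld in ethanol rat 7, at 37.14 CPM. Rats 5, 8 and 13 are those with high Slc17a7, and rat 7 is the one with high Pmch.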

How the results depend on the processing

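No paired analysis was possible because rats of different groups carry different numbers in the labels. No member was called in any comparison under any setting or with any rat left out, so the number of members called stayed at 0. Of 234 log2 changes under other settings, 209 kept their direction and side of the threshold, 23 turned in direction and 2 passed an unadjusted threshold (Mgll in withdrawal, exact permutation). With the index as a term, changes that turned were Daglb 0.077 and Abhd6 0.11 in chronic ethanol against control, and Cnr1 0.10 and Mgll 0.26 in withdrawal against control. With that term Cnr1 in chronic ethanol against control kept its direction but came to 0.36 (edgeR, adjusted p = 0.882), beside 0.054 in the main fit. In withdrawal against control without rats 5, 8 and 13, Cnr1 turned to 0.077 and Abhd6 to -0.012; without rat 17 too, Cnr1 turned to 0.030, Abhd6 to -0.021 and Napepld to -0.015. In the same comparison Dagla turned to -0.0089 by limma-voom and -0.0068 in log2 CPM, Daglb to -0.0042 and Abhd6 to -0.022 with the dopamine term, and Abhd6 to -0.0013 with the oligodendrocyte term. Napepld there turned to -0.0062 (stricter filter), -0.0066 (no filter), -0.0037 (DESeq2), -0.010 (limma-voom), -0.0030 (RLE), -0.0021 (2 groups), -0.047 (dopamine term) and -0.0054 (log2 CPM). Abhd6 turned to -0.0024 in withdrawal against chronic ethanol without rats 5, 8, 13 and 17, and the correlation of Cnr1 with Abhd6 to -0.16. The cause was not tested.

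With 1 rat left out, chronic ethanol against control ranged from -0.10 to 0.32 for Cnr1, -0.076 to 0.026 for Daglb and -0.057 to 0.032 for Abhd6. Withdrawal against control ranged from -0.039 to 0.11 for Dagla, -0.037 to 0.078 for Daglb, -0.053 to 0.035 for Napepld and -0.049 to 0.063 for Abhd6. Abhd6 in withdrawal against chronic ethanol ranged from -0.037 to 0.077. Mgll there ranged from -0.56 to -0.36, with a lowest adjusted p of 0.154 by edgeR.

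The number of all genes called by edgeR was 0 in each comparison. In chronic ethanol against control it was 46 by DESeq2, 10 with the oligodendrocyte term, 2 each by limma-voom, with the index term, with 2 groups only, without rats 5, 8 and 13 and without rat 17 too, and 1 at an adjusted p of 0.10. In withdrawal against control it was 47 by DESeq2, 11 with the oligodendrocyte term and 6 without rats 5, 8 and 13. In withdrawal against chronic ethanol it was 301 by DESeq2, 353 with the oligodendrocyte term, 26 without rats 5, 8 and 13, 2 without rat 17 too and 83 at 0.10. For any difference it was 298 by DESeq2, 2 by limma-voom, 74 with the oligodendrocyte term, 34 without rats 5, 8 and 13 and 1 without rat 17 too. With 1 rat left out it ran from 0 to 4 (rat 13), 0 to 2 (rat 13), 0 to 24 (rat 18) and 0 to 12 (rat 13). Gpr55, Gpr18 and Gpr119 had at most 8 counts in any library, Faah at most 12, and the other members 869 or more in every library.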
